A study of Mus musculus with 9 samples.

Results

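RNA of the medial prefrontal cortex (mPFC) was compared between 3 wild-type mice under chronic restraint stress (WT_ST) and 3 unrestrained wild-type mice (CT), which are 6 of the 9 libraries of the series. All 6 were male C57BL/6 mice with both copies of Fkbp5, the gene that the series deletes in its remaining group, and the labels give them an age of 11 weeks (the study's methods give a younger age). WT_ST mice were held in a latex glove in their home cages for 6 h a day over 3 weeks. CT mice stayed in their home cages, and they too had no food or water during the restraint hours, so fasting was shared by both groups. The wild-type and Fkbp5-/- mice descended from matings of heterozygotes, and nothing used here says which mice were littermates. The other 3 libraries come from stressed Fkbp5-/- mice (KO_ST). Their values are given only beside those of the wild-type mice, since both stressed groups share the CT mice. Each library was made from polyadenylated RNA of 1 mouse, from tissue cut out of a coronal slice, so neurons, glia, vessels and blood contribute to every value. The hour at which each mouse was killed is not given in the sources used here.

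The mPFC is a region of the cortex that takes part in emotion, working memory and the control of stress hormones. Restraint raises circulating glucocorticoids, which enter the brain and act through the glucocorticoid receptor on neurons, on glia and on the cells of blood vessels. Microglia are the resident immune cells of the brain and prune synapses through complement. Astrocytes take up glutamate and make most of the cholesterol that adult neurons use, which they export on apolipoprotein E. The 70 gene lists used below cover these cell types and pathways and other gene families.

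Each mouse gave 44318775 to 61150128 reads on genes. The unit compared is FPKM, the number of fragments scaled by the length of the transcript and by the depth of the library, taken as log2(FPKM+1) after quantile normalization, so a fold change understates the change of genes with low FPKM. Of the genes listed, 14409 averaged at least 30 reads over the 6 libraries and were tested with limma, with the adjustment of Benjamini and Hochberg for all adjusted p given. A gene is said below to have risen or fallen when its unadjusted p was under 0.05 and its fold change above 1.2. This held for 353 genes, or 2.45% of those tested. Of them 166 rose, which is 1.15% of the tested genes, and 187 fell, which is 1.30%. The split depends on scaling, as without quantile normalization 126 rose and 243 fell, a share of 34.1% higher against 47.0%. At a Benjamini-Hochberg adjusted p under 0.05 there were 5 genes, 0.0347% of those tested. The adjusted p of the 353 genes ranged from 0.00279 to 0.638, so a single gene outside those 5 does not pass a correction for the number of genes. Without CT replicate 3 the number that rose or fell was 542, and without CT replicate 2 it was 277. The 3 WT_ST values lay all above or all below the 3 CT values in 2014 genes, or 14.0%, and that share is the background for every statement below that groups did not overlap. The tissue carried the markers of its label, with a summed FPKM of the 12 excitatory neuron markers between 2475 and 2712 in the 6 mice. Choroid plexus was nearly absent, and its defining transcript Ttr stayed at an FPKM of 0 to 0.286.

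Most differences were small. The median of the log2 fold changes of all tested genes was 0.0033, with the middle of the distribution between -0.0598 and 0.0658, and the genes that rose or fell did so by a median of 0.35 in size. Among the 67 lists with at least 5 tested genes, 9 had a median log2 fold change of 0.1 or more and 6 had one of -0.1 or less. No gene rose or fell in 27 of the 70 lists.

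**Figure D1:**
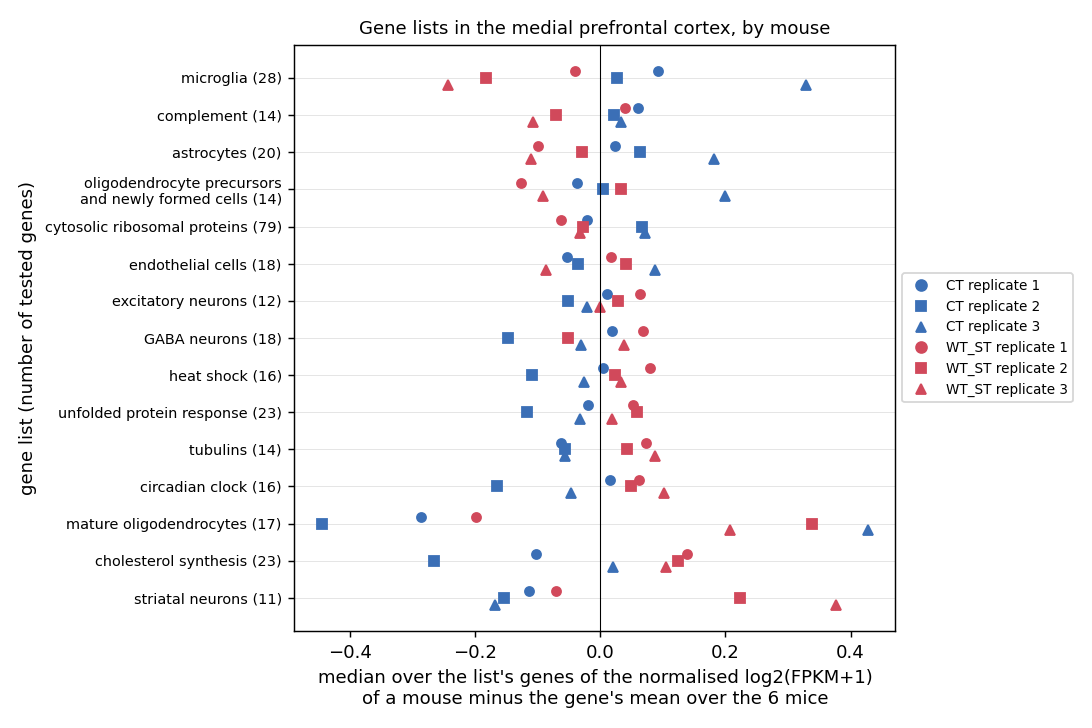
Each point is 1 mouse, and the horizontal axis gives the median over a list's tested genes of normalised log2(FPKM+1) minus the gene's mean over the 6 mice. The list of microglia markers lies between 0.03 and 0.33 in the CT mice and between -0.24 and -0.04 in the WT_ST mice, and the list of cholesterol synthesis between -0.27 and 0.02 in CT and between 0.10 and 0.14 in WT_ST.

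Microglial transcripts were lower after restraint. Of 28 tested microglia markers, 16 fell and none rose, against the 1.30% of all tested genes that fell, and 27 had the lower mean in WT_ST. Cx3cr1 encodes the fractalkine receptor through which microglia sense neurons, and its FPKM was 15.9, 15.6 and 19.4 in the CT mice and 12.1, 11.9 and 11.6 in the WT_ST mice. Every stressed mouse lay below every control (log2 fold change -0.48, standard error 0.0834, adjusted p = 0.433 by limma). Selplg, which encodes a ligand for selectins, was measured at 11.8, 11.1 and 12 in CT and 8.87, 8.62 and 8.01 in WT_ST, again without overlap (log2 fold change -0.40, standard error 0.0638, adjusted p = 0.282 by limma). Fcrls, a homeostatic marker of microglia, fell furthest in this list, from an FPKM of 14.8, 13.9 and 15.9 to one of 11.3, 8.79 and 7.86 (log2 fold change -0.63, standard error 0.123, adjusted p = 0.5498 by limma). Csf1r, the receptor whose signal microglia need to survive, stood at 28.8, 29.1 and 34.7 in CT and at 25.5, 23.3 and 20.6 in WT_ST. Its log2 fold change was -0.40, with a standard error of 0.0935. Inpp5d, a phosphatase that acts downstream of immune receptors, was held within 3.86 to 4.06 in CT and within 2.92 to 3.01 in WT_ST, and Olfml3, which microglia secrete, within 10.5 to 11.9 and 6.54 to 8.58. Tmem119, a marker that separates microglia from other macrophages, ranged over 8.62 to 10.9 in CT and over 6.63 to 8.47 in WT_ST (log2 fold change -0.40, standard error 0.121, adjusted p = 0.637 by limma), and after normalization WT_ST replicate 1 overlapped with CT replicate 2. These 7 genes fell in each of the 6 fits that left out 1 mouse.

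The remaining markers differed among themselves. P2ry12, a nucleotide receptor that guides the processes of resting microglia, also fell, with 17.6 to 21.3 in CT and 14.5 to 16.9 in WT_ST. It no longer passed without either CT replicate 3 or WT_ST replicate 3. The transcription factor Sall1, which maintains microglial identity, differed little, with 3.89 to 4.299 in CT and 3.46 to 4.29 in WT_ST and a log2 fold change of -0.05. Siglech, Ctss and Cd53 had log2 fold changes of -0.07, -0.10 and 0.06, each with overlapping groups. In bulk tissue, fewer cells of a type and less RNA per cell cannot be told apart. Aif1, which encodes the Iba1 protein often used to stain microglia, ranged over 4.29 to 10.8 in CT and over 3.72 to 7.48 in WT_ST, and its log2 fold change of -0.09 was smaller than its standard error of 0.329.

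How much of the microglia decline rests on single mice can be read from the sums. The FPKM of the 28 markers added up to 366, 355 and 452 in CT replicates 1, 2 and 3 and to 337, 300.1 and 286 in WT_ST. The CT mice lay above the WT_ST mice, with CT replicate 3 well above the other controls. That mouse also had the highest myelin and blood values. S100a8, a protein of neutrophils, stood at 1.95, 3.74 and 25.1 in CT and 0.776, 2.97 and 1.94 in WT_ST, and the blood markers together at 102, 224 and 1017 in CT and 217, 197 and 619.5 in WT_ST, with Hbb-bt at 0 in 3 and Cd3e at 0 in 4 of the 6 mice. The part of blood cells in the microglia result was not tested. Without CT replicate 3, 9 microglia markers fell in place of 16, 22 of 28 had the lower mean and the median log2 fold change was -0.21 in place of -0.31. A Student test per gene left 10, and the fit that shares its variance with the KO_ST mice left 4. Markers of perivascular macrophages were near 0, with 6 of 8 too low to be tested, none for Ms4a7 in 2 of the 6 mice and a summed FPKM of 1.27 to 3.57.

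**Figure D2:**
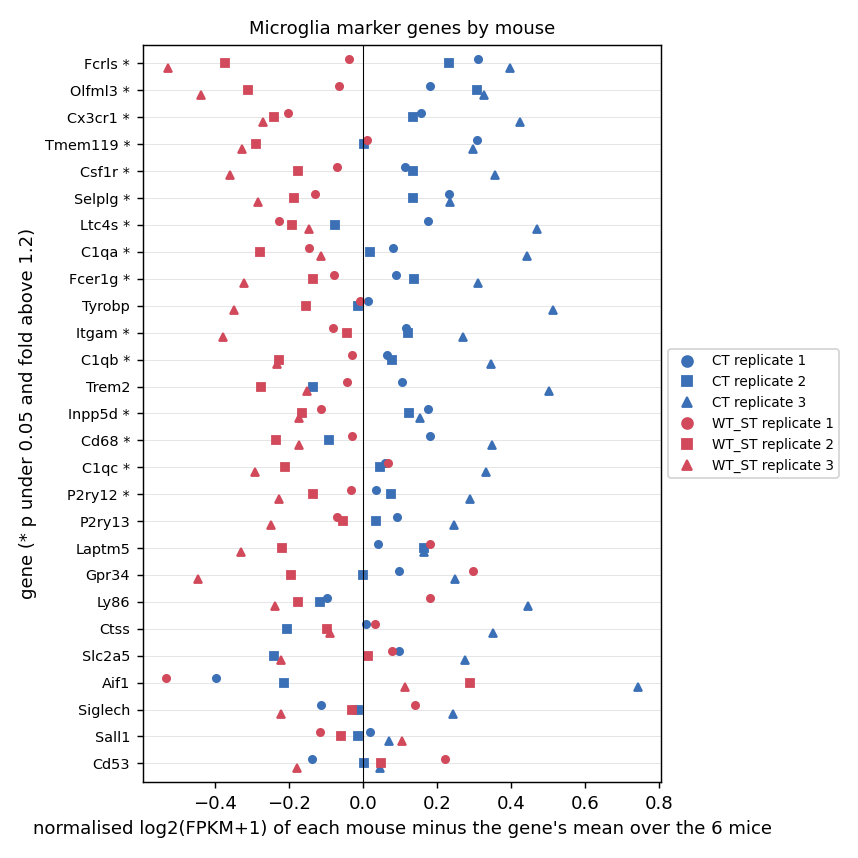
Each row is 1 of 27 of the microglia markers and each point 1 mouse, placed at its normalised log2(FPKM+1) minus the gene's mean over the 6 mice, with an asterisk on the 15 of them that fell. The stressed mice lie left of the controls in the rows of Selplg, Cx3cr1, Olfml3 and Fcrls, and the groups mix in the rows of Aif1, Cd53 and Siglech.

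Promoters of microglial genes are known targets of PU.1, a factor of the ETS family that binds purine-rich sites. The letters GAGGAAGT, searched on both strands of the window from 250 bases before to 50 bases after each RefSeq start on GRCm38.p6, occurred in 3.20% of 32851 promoters and in 4 of the 21 microglia markers with an entry. The promoter of Inpp5d (chr1:87620062-87620361, plus strand) is shown because this gene fell in every fit that left out a mouse and holds the letters, which stand in capitals.
Inpp5d: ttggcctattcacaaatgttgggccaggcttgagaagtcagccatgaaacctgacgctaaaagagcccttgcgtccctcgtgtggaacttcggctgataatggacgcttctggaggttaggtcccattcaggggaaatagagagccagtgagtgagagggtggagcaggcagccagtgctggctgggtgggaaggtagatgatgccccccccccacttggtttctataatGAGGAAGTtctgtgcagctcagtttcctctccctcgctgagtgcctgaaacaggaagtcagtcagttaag
The match is a description of the sequence, and no binding was measured.

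Complement, the cascade of tagging proteins that microglia read on synapses, was split between its parts. The 3 chains of C1q, the recognition molecule that starts the cascade, fell, as did the 2 chains of complement receptor 3, which microglia use to engulf tagged material. C1qa stood at 21.4, 20.4 and 28.01 in CT and 18.1, 16.4 and 18.6 in WT_ST, C1qb at 24.5, 24.8 and 30.3 and 23.2, 19.9 and 19.9, and the groups did not overlap for either gene. C1qc overlapped, with 23.5, 23.2 and 28.8 against 24.03, 19.3 and 18.2, and kept its call in 3 of the 6 fits that left out a mouse and in 5 of the 12 other settings. Of the receptor's chains, Itgam was lower without overlap at 5.97, 5.97 and 6.84 against 4.92, 5.21 and 3.897, and Itgb2 at 2.01, 1.85 and 2.504 against 1.62, 1.46 and 1.498. C4b went the other way: this component, which the activated C1 complex cleaves onto targets and which astrocytes and neurons also make, had 2.01, 2.65 and 1.68 in CT and 3.04, 3.06 and 2.6 in WT_ST (log2 fold change 0.36, standard error 0.1303, adjusted p = 0.638 by limma). It rose in 2 of the 6 fits that left out a mouse. Of 14 tested complement genes 5 fell and 1 rose, against 1.30% and 1.15% of all tested genes. Of the list, 4 are microglia markers as well, so these counts repeat part of those above. C3 and C5ar1 had too few reads to be tested. Without CT replicate 3, 1 complement gene fell, without WT_ST replicate 2 or without WT_ST replicate 3 it was 2, and in the fit with all 9 libraries no gene of the list passed. Reads of Itgam are less certain than the others, since 64.3% of its stretches of 1 read length also occur in transcripts of Gm49368.

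Other immune programs showed no such pattern. None of the 14 genes of antigen presentation, the 19 of the interferon response or the 22 of NF-kappaB and cytokine signaling rose or fell. The medians of these lists were between -0.01 and 0.00. Too low to be tested were 7 cytokine and chemokine genes: Il1b, Il6, Tnf, Ccl2, Ccl3, Ccl4 and Cxcl10. Nlrc5 and Ciita of antigen presentation and Mx1 of the interferon list were also too low. Without WT_ST replicate 1, 2 antigen presentation genes fell, with a median of -0.098, and 1 of the NF-kappaB list. Without CT replicate 3, 1 antigen presentation gene rose, and without CT replicate 1, 2 interferon genes rose. Among 16 genes of prostaglandin and leukotriene synthesis, 2 genes of the leukotriene branch fell, against 1.30% of all tested genes, the synthase Ltc4s and the activating protein Alox5ap, with Ltc4s at 2.53 to 4.32 in CT and 2.12 to 2.37 in WT_ST and Alox5ap at 2.76 to 3.67 and 2.32 to 2.72. Ptgs2, the inducible cyclooxygenase that cortical neurons also express, rose from between 2.36 and 3.42 to between 3.31 and 3.92. Each of these 3 passed in 2 of the 6 fits that left out a mouse. Ltc4s is also counted among the microglia markers above. Of the 22 integrins and partners tested 3 fell, against the same 1.30%, and 1 without CT replicate 3 or without WT_ST replicate 3. Of the 3, Itgam and Itgb2 are counted with complement above. Itgb5 fell as well, from 12.02, 12.1 and 14.1 in CT to 10.4, 10.04 and 9.27 in WT_ST, and did not pass without CT replicate 3.

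Genes of cholesterol synthesis were higher in the stressed mice. All 23 tested members of the pathway had the higher mean in WT_ST, against 51.3% of all tested genes. Of them 8 rose, against a background of 1.15%. In 18 the groups did not overlap, against a background of 14.0% for either direction. The smallest log2 fold change was 0.10, for Pmvk, and the middle of the list lay at 0.24. The pathway runs from acetyl-CoA through mevalonate and squalene to cholesterol, and its enzymes are switched on together by the factor SREBP2 when sterol is low. Hmgcs1, at the entry to the mevalonate pathway, was measured at 80.3, 64.8 and 85.1 in CT and 100.7, 93.9 and 91.1 in WT_ST. Every stressed mouse lay above every control. Fdft1, the squalene synthase that commits the pathway to sterols, rose from 29.9, 26.9 and 33.3 to 38.4, 37.9 and 38.5 (log2 fold change 0.34, standard error 0.0718, adjusted p = 0.5498 by limma). Squalene epoxidase, encoded by Sqle, came next at 23.1, 21.6 and 26.4 against 30.1, 28.4 and 28.6. The late enzymes Ebp and Hsd17b7 rose within narrower margins, from between 6.02 and 7.92 to between 8.53 and 8.75 and from between 3.77 and 4.97 to between 5.28 and 5.82. Stard4, a carrier of cholesterol within the cell, rose with synthesis, from 6.72, 5.41 and 6.86 in CT to 8.07, 8.46 and 8.57 in WT_ST. The regulator Srebf2 itself was at 59.7, 58.6 and 61.4 and 65.1, 68.5 and 61.8, with a log2 fold change of 0.12.

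The summed FPKM of the 23 cholesterol synthesis genes was 512, 457 and 555 in CT and 616, 598 and 587 in WT_ST. The WT_ST mice were alike, and the spread was among the controls, of which replicate 2 was lowest. All 23 genes stayed higher in mean under each of the 18 alternatives, with a median log2 fold change of 0.19 to 0.30. The number that rose depended on the mice: 3 without CT replicate 2, 4 without WT_ST replicate 1, 5 without WT_ST replicate 3 and 16 without CT replicate 3, and it was 5 without quantile normalization and 3 with a Student test per gene. Fdft1 and Stard4 rose in each of the 6 fits that left out a mouse. Sqle did not pass without CT replicate 2, and Hmgcs1, Ebp and Hsd17b7 without CT replicate 2 or without WT_ST replicate 1. Ebp and Hsd17b7 also did not pass without WT_ST replicate 3. Idi1, which isomerizes the isoprene unit, rose from between 5.88 and 9.62 to between 9.61 and 10.9 in 1 of those fits. Fatty acid synthesis, which the related factor SREBP1 drives, did not move with cholesterol synthesis, with no gene of 17 past the limits and a median of 0.03.

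**Figure D3:**
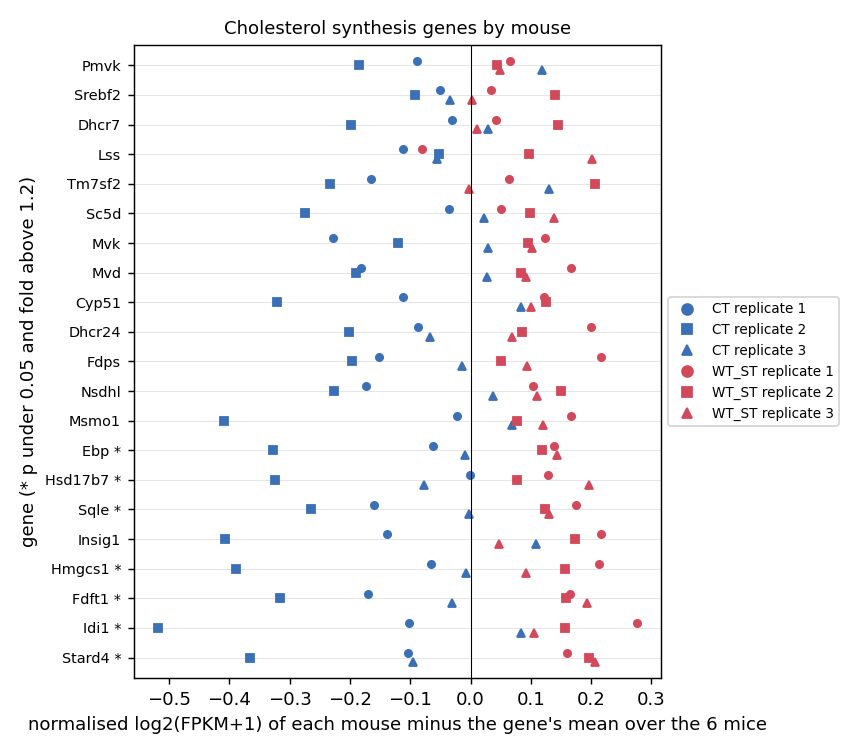
Each row is 1 of 21 of the cholesterol synthesis genes and each point 1 mouse, placed at its normalised log2(FPKM+1) minus the gene's mean over the 6 mice, with an asterisk on the 7 of them that rose. The 3 stressed mice cluster on the right, and CT replicate 2 lies leftmost in 19 rows.

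The site through which SREBP2 acts is a short direct repeat near the start of its target genes. Searched as TCACNCCAC on both strands of the same windows, it was found in 1.24% of all promoters and in 1 of the 16 cholesterol synthesis genes with an entry, Hmgcs1 (chr13:119690101-119690400, plus strand). Its promoter is shown with the match in capitals.
Hmgcs1: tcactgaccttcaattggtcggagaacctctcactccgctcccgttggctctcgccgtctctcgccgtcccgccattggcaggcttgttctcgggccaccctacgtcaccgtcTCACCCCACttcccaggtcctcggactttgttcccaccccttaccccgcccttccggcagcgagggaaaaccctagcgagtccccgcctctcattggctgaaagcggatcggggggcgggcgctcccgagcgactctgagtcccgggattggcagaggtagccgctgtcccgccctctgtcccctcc
The absence of these letters from the other windows says nothing about the factor.

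Of 14 tested genes of cholesterol efflux and turnover 2 fell, against 1.30% of all tested genes, and none rose, with a median log2 fold change of -0.03. Apoe, the lipoprotein that carries lipid from astrocytes and microglia to neurons, was measured at 762, 1118 and 799.7 in CT and at 649.9, 626 and 628 in WT_ST, without overlap (log2 fold change -0.55, standard error 0.178, adjusted p = 0.638 by limma). CT replicate 2 was the highest, and without it the log2 fold change was -0.31. Abca1, the pump that loads lipid onto apolipoprotein E, fell from 3.05, 3.22 and 2.72 to 2.04, 2.22 and 2.35 (log2 fold change -0.29, standard error 0.0805, adjusted p = 0.637 by limma), and did not pass without CT replicate 2 or without WT_ST replicate 1. The other 12 neither rose nor fell. Among them, Abcg1, a second pump under the same sterol-sensing nuclear receptors, had 13.6 to 14.2 in CT and 13.2 to 14.3 in WT_ST, and Cyp46a1, the neuronal enzyme that turns cholesterol into its exported hydroxylated form, 114 to 126 and 116 to 133.

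Several astrocyte markers were lower in the stressed mice. Of 20 tested, 5 fell, against 1.30% of all tested genes, and none rose. In WT_ST 16 had the lower mean, and the median log2 fold change was -0.18. Without overlap 12 were lower, against a background of 14.0% for either direction. Slc1a3, the glial glutamate transporter GLAST, stood at 122, 137 and 149 in CT and 109.6, 109 and 109.5 in WT_ST (log2 fold change -0.30, standard error 0.0637, adjusted p = 0.5498 by limma). Slc1a2, the transporter GLT-1 that clears most synaptic glutamate in the forebrain, was at 229.7, 248 and 256 and 204, 219 and 208, below the fold limit but without overlap. Aqp4, the water channel of astrocyte endfeet, fell from 13.8, 12.8 and 15.6 to 7.77, 7.32 and 12.1. Fabp7, a fatty acid carrier of astrocytes and their progenitors, fell from 21.9, 27.8 and 24.5 to 18.6, 16.5 and 14.9 (log2 fold change -0.54, standard error 0.105, adjusted p = 0.5498 by limma). Without CT replicate 3, Slc1a3 did not pass, while Fabp7, Aqp4 and Apoe fell in each of the 6 fits. In the list, 2 markers rose without CT replicate 3 and 1 without WT_ST replicate 3, and with a Student test per gene 2 fell in place of 5. Gfap, the filament protein of reactive astrocytes, had 22.9, 23.4 and 17.3 and 27.2, 27.4 and 19.8, and S100b 32.9 to 38.8 and 34.6 to 39.5, with overlapping groups for both. Glul, the glutamine synthetase, spread between 295 and 511 in CT and overlapped with 374 to 453 in WT_ST.

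Of 20 Notch genes 1 fell and 2 rose, Hey2 and Numb, against 1.30% and 1.15% of all tested genes. Hes5, the Notch target that holds progenitors and astrocytes undifferentiated, fell from 7.799, 11.3 and 10.03 to 7.34, 5.89 and 6.35 (log2 fold change -0.49, standard error 0.135, adjusted p = 0.637 by limma), whereas Hey2, a related factor, rose from between 1.01 and 1.47 to between 1.51 and 2.04 in 3 of the 6 fits that left out a mouse. Of 14 markers of oligodendrocyte precursors and newly formed oligodendrocytes, 10 had the lower mean and 2 fell, against 1.30% of all tested genes, but without CT replicate 3, 1 fell and 2 rose, and without CT replicate 1, 4 fell. Neu4, a sialidase of these cells, was lower at 2.21, 2.79 and 2.77 against 1.94, 1.82 and 1.71, and fell in all of the 6 fits. Pdgfra, the growth factor receptor that defines precursors, was at 8.72, 9.12 and 8.77 and 6.97, 7.74 and 8.28, without overlap and under the fold limit. Of the Wnt pathway's 22 ligands and receptors 2 fell, against 1.30% of all tested genes. The frizzled receptor Fzd9 fell in every one of those fits, from 2.06, 2.24 and 2.19 to 1.54, 1.52 and 1.01, and Fzd10, another such receptor, was at 0.633, 0.839 and 0.402 and 0.321, 0.386 and 0.219 and passed in 1 of the 6.

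Myelin genes varied more between mice than between groups. None of the 17 markers of mature oligodendrocytes rose or fell, although all 17 had the higher mean in WT_ST and their median log2 fold change was 0.23. Mag, an adhesion protein of the myelin sheath, was measured at 25.5, 21.1 and 45.4 in CT and 29, 42.6 and 36.5 in WT_ST. CT replicate 3 held the highest value, and WT_ST replicate 1 was near the other controls. By the medians of the list, the CT mice lay at -0.29, -0.45 and 0.43 and the WT_ST mice at -0.20, 0.34 and 0.21. Without CT replicate 3, 14 of the 17 passed as higher and the median was 0.48, and without CT replicate 2 none did and it was 0.07.

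Of 16 tested clock genes 2 rose, against 1.15% of all tested genes, and none fell. Per2, a repressor of the circadian loop that glucocorticoids can also induce, was at 8.29, 7.201 and 9.68 in CT and 11.2, 13.1 and 12.1 in WT_ST (log2 fold change 0.51, standard error 0.101, adjusted p = 0.5498 by limma). Cry1, its partner repressor, was at 4.61, 4.84 and 4.88 and 6.38, 5.98 and 5.89 (log2 fold change 0.32, standard error 0.0644, adjusted p = 0.5498 by limma). Both were higher in every stressed mouse and rose in each of the 6 fits that left out a mouse. The other 14 clock genes stayed under the limits. Without CT replicate 1, 5 clock genes rose in all, with the replicate block 3 did, and without WT_ST replicate 1, 1 fell. Nr1d2, a repressor of the loop's activator, and Hlf, an output factor of the clock, had higher values in each stressed mouse, at 21.4 to 26.6 against 28.2 to 28.5 and 30.7 to 35.7 against 37.5 to 38.6. Arntl, the activator that runs opposite in phase to Per2, was lower in mean at 13.8, 15.8 and 14.3 against 14.04, 11.9 and 11.6, with a log2 fold change of -0.21, and Nr1d1 had 48.1 to 50.02 and 43.7 to 48.7. Dbp, Tef and Cry2 differed by 0.16, 0.01 and 0.01 on the log2 scale, each with overlapping groups. These transcripts follow the hour of the day, and whether the groups were killed at like hours cannot be told from the sources used here.

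Clock repressors are driven through the E-box, CACGTG, which reads the same on both strands. It lies in 7.15% of the promoters searched, in 11.5% of the tested genes with an entry and in 5 of the 14 clock genes with one, of which Cry1 is the one that rose. Its promoter (chr10:85185005-85185304, minus strand) is shown with the E-box in capitals.
Cry1: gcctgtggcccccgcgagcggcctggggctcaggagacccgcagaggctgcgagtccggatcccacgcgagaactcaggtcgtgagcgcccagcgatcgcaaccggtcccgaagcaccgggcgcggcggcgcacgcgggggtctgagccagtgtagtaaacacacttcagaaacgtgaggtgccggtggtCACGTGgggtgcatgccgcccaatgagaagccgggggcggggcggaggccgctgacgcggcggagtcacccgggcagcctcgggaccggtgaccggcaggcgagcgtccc

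Of 22 known glucocorticoid receptor targets, Fkbp5, the co-chaperone that the receptor induces and that in turn dampens it, was the only one past the limits, against 2.45% of all tested genes, with 7.61, 6.46 and 7.28 in CT and 9.83, 9.47 and 10.2 in WT_ST (log2 fold change 0.44, standard error 0.0703, adjusted p = 0.282 by limma). The median of the list was 0.06, and 9 of the 22 had the lower mean in WT_ST. Klf9, a factor with receptor sites of its own, was higher without overlap, at 45.8, 39.5 and 41.8 against 47.4, 50.3 and 48.7. Sgk1, a kinase that rises quickly after a glucocorticoid pulse, had 17.2, 16.4 and 20.6 and 20.2, 18.9 and 22.98, and Tsc22d3, which encodes the anti-inflammatory protein GILZ, 19.6, 14.5 and 16.97 and 16.8, 17.4 and 24.2, with overlap for each. Mt1, a metallothionein that glucocorticoids and zinc induce, was at 165 to 184 in CT and 139 to 166 in WT_ST. The receptors themselves gave 13.7 to 15.7 and 14.3 to 15.5 for Nr3c1 (glucocorticoid) and 3.79 to 5.32 and 4.53 to 4.91 for Nr3c2 (mineralocorticoid). No receptor or chaperone among the 12 tested passed.

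Immediate early genes, which neurons switch on when active, spread widely among the CT mice. Of 19 immediate early genes 1 fell, against 1.30% of all tested genes. Btg2, an antiproliferative early gene, fell from 5.83, 4.08 and 3.51 to 2.66, 2.63 and 2.596 (log2 fold change -0.54, standard error 0.151, adjusted p = 0.637 by limma), in each fit that left out a mouse. Arc, which acts at active synapses, was at 34.9, 10.02 and 13.8 in CT and 18.7, 18.1 and 15.1 in WT_ST, and Fos at 7.07, 2.18 and 2.81 and 5.29, 5.104 and 3.04. CT replicate 1 had the highest value for both. Without CT replicate 1, 6 immediate early genes rose in place of none.

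Genes of protein folding differed by a little. Of 23 genes of the unfolded protein response 21 had the higher mean in WT_ST, against 51.3% of all tested genes, and 1 rose, against 1.15%, and 15 of 16 heat shock genes had the higher mean with none past the limits. Canx, the calnexin that folds glycoproteins in the endoplasmic reticulum, rose from 49.7, 65.8 and 50.4 to 80.05, 76.4 and 75.95 (log2 fold change 0.48, standard error 0.106, adjusted p = 0.5498 by limma). Hspa5, the chaperone BiP that rises when the endoplasmic reticulum is under load, overlapped between groups at 87.5, 74.7 and 85.8 against 100.1, 91.4 and 82.5, and so did Ddit3, the factor CHOP, at 15.1 to 17.9 against 17.3 to 18.9. Creld2, a secreted protein induced by such load, was higher without overlap and under the fold limit at 8.28 to 9.05 against 9.45 to 10.1. The medians of these lists were 0.11 and 0.08, and without CT replicate 2 they were 0.05 and 0.03. Without WT_ST replicate 1 the heat shock median was 0.05.

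Small shared shifts also ran through tubulins and ribosomal proteins. In 7 of 14 tubulins the stressed mice all lay higher and in 1 all lower, against a background of 14.0% for either direction. Tubb4b, a widely expressed beta-tubulin, lay higher at 247, 232 and 243 in CT and 287, 265 and 269 in WT_ST. Tubg1, the gamma-tubulin that nucleates microtubules, lay lower at 36.1, 33.98 and 37.3 against 33.4, 31.7 and 28.9. None passed the fold limit. Of 79 cytosolic ribosomal proteins 71 had the lower mean in WT_ST, while 51.3% of all tested genes had the higher one, and 30 were lower without overlap, against a background of 14.0% for either direction, at a median of -0.08. Of the 79, 1 fell and 1 rose, against 1.30% and 1.15% of all tested genes. Rps19 fell from 117, 136 and 139 to 107, 109.9 and 104, in 3 of the 6 fits that left out a mouse. Rps4l, a second copy of a ribosomal gene, rose from 5.46, 5.703 and 6.05 to 6.46, 7.92 and 7.403. Mitochondrial ribosomal proteins and the respiratory chain complexes had medians between -0.01 and 0.04 with no gene past the limits.

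Most genes of the neuronal lists stayed under the limits. None of 12 excitatory neuron markers, 38 genes of glutamate receptors and the excitatory postsynapse, 19 of the inhibitory synapse or 57 clustered protocadherins passed. Of the protocadherins, however, 1 to 3 rose and 0 to 1 fell in each of the 6 fits that left out a mouse. Slc17a7, the vesicular glutamate transporter of cortical neurons, had 581, 590.2 and 637 in CT and 677, 648 and 617 in WT_ST. The 18 markers of GABA neurons had a median log2 fold change of 0.11, with 12 of them higher in mean, but without CT replicate 2 it was 0.03 with 9 of them higher, and without WT_ST replicate 1 it was 0.05. Among them, Slc32a1, which loads GABA into vesicles, was higher in every stressed mouse at 25.9, 23.4 and 24.4 against 30.4, 30.2 and 26.6 and under the fold limit, while 1 of the 18 fell, against 1.30% of all tested genes: Cort, the peptide of a set of somatostatin neurons, from between 6.797 and 8.45 to between 5.52 and 6.14, in 3 of the 6 fits that left out a mouse. Of 26 synaptic vesicle genes 1 rose, against 1.15% of all tested genes, Syt2, the fast calcium sensor found at parvalbumin synapses, from 2.23, 0.776 and 2.17 to 2.504, 3.896 and 3.16. CT replicate 2 was low for Syt2, which no longer passed without WT_ST replicate 2. Of 20 growth factors and receptors none passed.

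Bcl11b, the factor CTIP2 of subcortically projecting neurons and of striatal neurons, rose from 8.71, 6.21 and 6.44 to 9.16, 10.9 and 10.3 (log2 fold change 0.48, standard error 0.126, adjusted p = 0.613 by limma), while the other 13 deep-layer markers did not pass, against 1.15% of all tested genes that rose. Without CT replicate 3, 3 deep-layer markers rose in place of 1. Of 11 striatal markers 3 rose, against 1.15% of all tested genes: Rgs9, which ends signalling at dopamine receptors (5.66, 7.63 and 5.36 against 6.99, 10.1 and 11.04), the dopamine receptor Drd2 (0.809, 0.664 and 0.6404 against 0.818, 1.71 and 2.27) and the adenosine receptor Adora2a (0.683, 0.741 and 0.814 against 0.836, 1.27 and 2.07). WT_ST replicates 2 and 3 were high for all 3 genes and WT_ST replicate 1 was near the controls. By the medians of the striatal list the WT_ST mice lay at -0.07, 0.22 and 0.38 and the CT mice at -0.11, -0.15 and -0.17. Of the 11, 1 passed without WT_ST replicate 2 or without WT_ST replicate 3, 6 without WT_ST replicate 1 and none with a Student test per gene. Penk, an opioid peptide of the same striatal cells that cortex also makes, overlapped at 12.5 to 31.2 against 21.3 to 31.5, and Pdyn had 8.37 to 9.99 and 7.66 to 9.74. How far the dissection reached toward the striatum in each mouse was not tested. Of 10 upper-layer markers 2 fell, against 1.30% of all tested genes. Rspo1, a secreted enhancer of Wnt signals, was at 1.63 to 2.32 in CT and 1.04 to 1.65 in WT_ST and kept its call in 2 of the 6 fits that left out a mouse and in 1 of the 12 other settings. Otof, a calcium sensor of vesicle release, fell from between 7.74 and 10.9 to between 5.88 and 7.91 in 2 of the 6 fits that left out a mouse.

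Of 18 endothelial markers 1 fell and 1 rose, and of 13 mural markers 1 fell, against 1.30% and 1.15% of all tested genes that fell and rose. Among the endothelial markers Cldn5, the claudin that seals the blood-brain barrier, fell from 17.9, 21.6 and 17.8 to 15.5, 16.3 and 13.2 (log2 fold change -0.32, standard error 0.102, adjusted p = 0.638 by limma) and did not pass without CT replicate 2 or without WT_ST replicate 3. Vwf, a clotting factor of endothelium, rose from 1.796, 1.58 and 2.05 to 2.48, 2.85 and 1.91 in 2 of the 6 fits, and the list's median was -0.03. Of the mural markers, Vtn, which pericytes secrete, fell from 29.6, 25.5 and 29.2 to 25.4, 22.4 and 20.2, though not without WT_ST replicate 3. Fibroblast markers were high in CT replicate 1 and WT_ST replicate 1, by medians of 0.47 and 0.51, and blood markers in CT replicate 3, by 1.63. None of the 15 fibroblast or 9 blood genes passed. In 12 of the fibroblast markers the WT_ST mean was the higher one and their list's median stood at 0.29. Of the 15, 8 rose without CT replicate 1 and 6 with the replicate block, while without WT_ST replicate 1 none rose, 1 fell and the median was 0.06. Without CT replicate 3 it was 0.09. Foxj1, the master factor of motile cilia, rose from 0.376, 0.224 and 0.413 to 0.795, 0.838 and 0.815 (log2 fold change 0.47, standard error 0.06599, adjusted p = 0.223 by limma) in all of those fits, while no other marker of choroid plexus or ependyma that could be tested did so.

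Of 12 tested cell cycle genes 4 rose, against 1.15% of all tested genes, and 1 fell, the inhibitor Cdkn1c, from 4.83, 5.85 and 4.04 to 4.01, 3.14 and 3.61, which overlapped after normalization, in 2 of the 6 fits that left out a mouse. Mcm5, a subunit of the replicative helicase, was at 1.72, 2.05 and 1.79 in CT and 2.36, 2.39 and 2.28 in WT_ST, and Ccnd2, a D-type cyclin that neurons also hold, at 9.96, 8.79 and 10.9 and 10.6, 13 and 12.9. Top2a was at 0.08997, 0.101 and 0.4202 and 0.266, 0.545 and 0.619, with CT replicate 3 among the stressed mice. Mki67, the usual marker of dividing cells, had 0.1002, 0.0945 and 0.324 and 0.191, 0.2196 and 0.344 and overlapped. No cell cycle gene rose without WT_ST replicate 2, 1 rose without CT replicate 1, without CT replicate 2 or without WT_ST replicate 3, and 2 rose without WT_ST replicate 1.

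The 5 genes with an adjusted p under 0.05 were Nsg2, Cap1 and 3 genes of a zinc finger cluster. Nsg2, an endosomal protein that neurons use to traffic AMPA receptors, was measured at 307, 318 and 286 in CT and 129.8, 121 and 123 in WT_ST (log2 fold change -1.29, standard error 0.0658, adjusted p = 0.00279 by limma). No wild-type mouse lay in between, and KO_ST mice had 122, 299 and 284, 1 at the stressed level and 2 at the control level. Cap1, which recycles actin, rose from 63.95, 56.03 and 51.3 to 104, 105 and 103 (log2 fold change 0.86, standard error 0.0845, adjusted p = 0.0493 by limma), against 57.9, 61.4 and 100.9 in KO_ST. None of the stretches of 1 read length of either gene occurs in another gene's transcripts. A pair of further genes took 1 of 2 levels in each mouse: Tspan14, a tetraspanin that carries the protease ADAM10, was at 6.64, 6.14 and 6.69 in CT, 20.4, 6.71 and 19.8 in WT_ST and 6.82, 19.9 and 19.4 in KO_ST, and Numb, an endocytic regulator of Notch, at 8.06, 7.93 and 8.404, 22.7, 20.7 and 7.72 and 19.98, 19.1 and 21.98. Psmc3ip, a cofactor of recombination, which fell in 3 of the 6 fits that left out a mouse, was at 12.3, 13.3 and 13.3, 6.85, 7.13 and 0.896 and 12.8, 12.9 and 7.93. Each WT_ST mouse lay below every CT mouse for Psmc3ip. For Tspan14 and Numb the level did not follow the group in every mouse, and Tspan14 and Numb each rose in 1 of the 6 fits that left out a mouse. Myl12a, a myosin light chain, had 8.42, 7.21 and 15.9, 21.96, 20.4 and 20.1 and 13.1, 21.1 and 21.5, and rose in each of those fits.

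**Figure D4:**
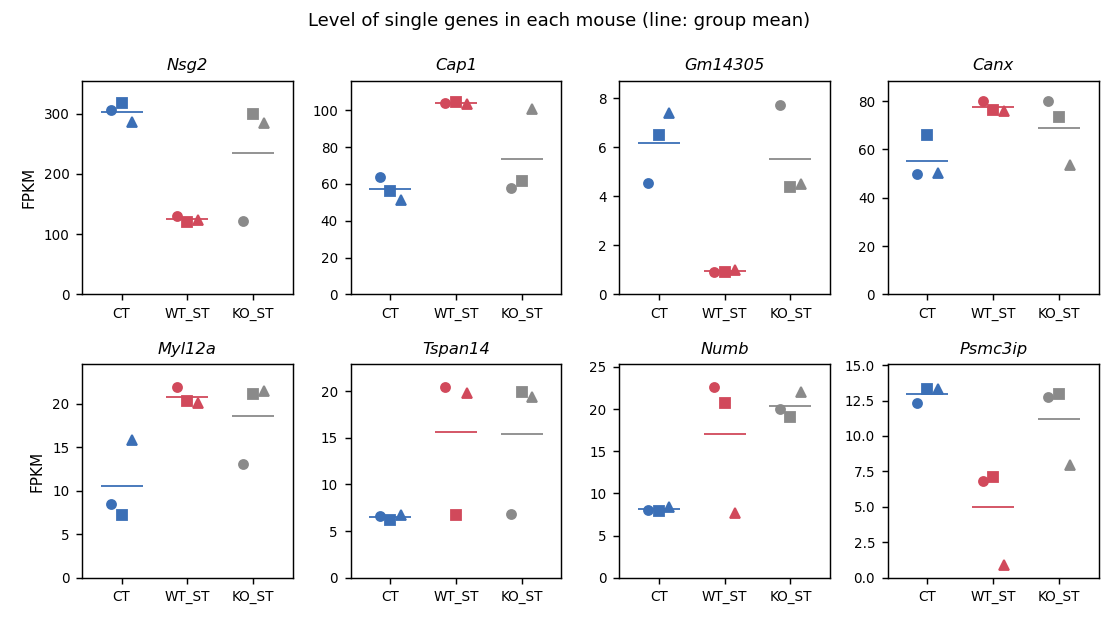
Each panel plots the FPKM of 1 gene in the 9 mice, with a line at each group's mean. For Nsg2 the WT_ST mice lie together between 121 and 129.8 and the CT mice between 286 and 318, while 1 KO_ST mouse lies with the former and 2 with the latter, and for Tspan14 and Numb the mice of a stressed group fall on 2 levels.

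The zinc finger genes lie side by side on chromosome 2. KRAB zinc finger proteins repress transposable elements, and this cluster holds many near-identical copies. From Gm14391 to Gm14296 (chromosome 2, 175185165 to 176927813, GRCm38.p6), 13 tested genes follow each other, of which 12 fell and 1 rose, with a median log2 fold change of -0.54. The run was bounded by its first and last gene past the limits, after the values were seen, so its count is a description and is not to be read against the 2.45% of all tested genes. The next 7 tested genes on the far side did not pass, at -0.18 to 0.19. Gm14305 was at 4.56, 6.53 and 7.43 in CT and 0.926, 0.897 and 0.994 in WT_ST (log2 fold change -1.84, standard error 0.144, adjusted p = 0.0181 by limma), and Gm14295 at 6.13, 11.3 and 8.38 and 0.759, 0.844 and 0.116 (log2 fold change -2.58, standard error 0.251, adjusted p = 0.0493 by limma). 2210418O10Rik stood at 1.21, 0.956 and 1.18 and 0.0767, 0.0288 and 0.0896 (log2 fold change -0.97, standard error 0.0651, adjusted p = 0.00954 by limma). For Gm14296 the reads were 608, 1342 and 1147 in CT and 0, 0 and 6 in WT_ST. Gm6710, in the midst of them, rose from 2.81, 1.902 and 2.38 to 3.25, 3.29 and 3.14. The KO_ST mice had 7.72, 4.37 and 4.503 for Gm14305, near the controls. For Zfp967, at low FPKM, they had 0.0656, 0.195 and 0.104, against 0.308 to 0.514 in CT and 0.0601 to 0.148 in WT_ST. KO_ST values of the other genes of the run are not given here. Reads cannot be placed securely here: 68.8% of the stretches of 1 read length of Gm14305 occur in other genes, 52.5% of those of Gm14295, 51.7% of those of Gm14296 and 100% of those of 2210418O10Rik. Whether the low counts come from less RNA or from reads placed on another copy was not tested.

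**Figure D5:**
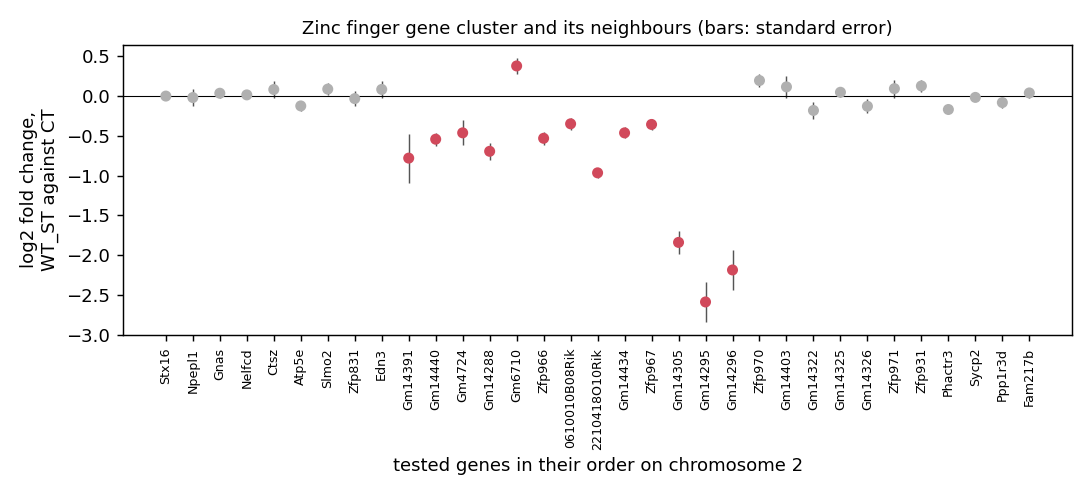
Points show the log2 fold change in WT_ST against CT, with bars for its standard error, for the tested genes of the zinc finger cluster and its neighbours in their order on chromosome 2. The run from Gm14391 to Gm14296 lies below 0 apart from Gm6710, and the 7 genes after it lie between -0.18 and 0.19.

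A few single genes outside these groups separated the mice. Krt12, a keratin best known from cornea, rose from 0.955, 0.874 and 0.7399 to 2.98, 1.85 and 3.67 (log2 fold change 1.04, standard error 0.174, adjusted p = 0.3497 by limma). Gapdh, the glycolytic enzyme often used to scale other transcripts, rose from 540.1, 507 and 683 to 864, 814 and 715 (log2 fold change 0.50, standard error 0.106, adjusted p = 0.5498 by limma), and Pgam2, the muscle form of another glycolytic enzyme, from between 2.26 and 3.16 to between 3.898 and 5.72. Col12a1, a collagen of the fibril surface, fell from 3.699, 3.64 and 4.26 to 2.29, 1.61 and 2.74, and Thbs4, a secreted thrombospondin, rose from 0.548, 0.726 and 0.493 to 0.786, 2.39 and 2.22, furthest in WT_ST replicates 2 and 3. All 5 passed in each of the 6 fits that left out a mouse. Atp6v0c-ps2, a processed copy of a proton pump subunit, rose while its parent fell, each in 1 of the 6 fits that left out a mouse, and 72.3% of its stretches are those of the parent and the FPKM of both together was 789, 759 and 797 in CT and 876, 799 and 849 in WT_ST. Of 255 solute carriers 3 rose and 3 fell, a share of 2.35% against 2.45% of all tested genes, and without CT replicate 1 it was 14 and 10. Slc39a10, a zinc importer, rose from 67.7, 59.4 and 64.05 to 79.8, 73.9 and 80.98, which did not pass without CT replicate 2 or without WT_ST replicate 3.

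Beside the wild-type mice, the KO_ST mice had the following medians against the same CT mice, and these are not independent of the values above. The microglia median was -0.62 in KO_ST and -0.31 in WT_ST, but the 3 KO_ST mice spread from -0.91 to -0.02 by their medians, wider than either wild-type group. For cholesterol synthesis the medians were 0.26 in KO_ST and 0.24 in WT_ST, and for clock genes 0.18 and 0.17. Glucocorticoid receptor targets stood at 0.21 in KO_ST and 0.06 in WT_ST, and the unfolded protein response at 0.01 and 0.11. Whether the 2 stressed groups differ in these lists was not tested here.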

How the data were processed

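RNA of the mPFC was sequenced in 9 mice, of which 3 CT and 3 WT_ST mice, grouped by the labels, were compared. A stranded mRNA kit gave paired reads on a HiSeq instrument. The authors aligned them to GRCm38 with HISAT2 2.1.0 (Bowtie2 2.3.4.1 is also named) and quantified genes with StringTie 1.3.4d. For each gene the authors deposited raw read counts, and FPKM values (fragments relative to transcript length and library depth). FPKM was the main measure, as in the study's methods.

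From these files log2(FPKM+1) was computed and quantile normalized over all genes and 9 libraries. Groups were compared over the 6 wild-type libraries with limma 3.58.1 (two-sided, with a trend of the variance on the mean, and Benjamini-Hochberg adjustment) in R 4.3.3, for genes averaging 30 reads or more. The method was tested on simulated data. Alternatives were DESeq2 1.42.0 and edgeR 4.0.16 for the counts, another pseudocount, other filters and scalings, a fit with all libraries, a replicate block and leaving out each mouse. Sums and medians of gene lists describe the libraries and carry no test. The mice and the 70 lists were chosen with earlier results of these data known. Named genes are those with an adjusted p under 0.05, the 12 with the largest change each way, the leading members of each list and Fkbp5. Not all are named, some members of the lists are not reported singly here or drawn, and other genes were chosen after their values were seen. Promoters and positions come from RefSeq on GRCm38.p6, which held 24462 of the listed genes. Shared sequence was counted as stretches of 1 read length of GENCODE transcripts found in a transcript of another gene. Python 3.11.15 and matplotlib 3.10.9 drew the figures.

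Depth was 44318775 to 61150128 reads on genes, and 17208 to 17588 genes had reads in each mouse. Pearson correlations between libraries were 0.9888 to 0.9936, and chi-square over its degrees of freedom was 18.6 or more for every pair of the 6 libraries, so no library repeats another. Replicate numbers of CT and WT_ST come from the labels, and deviations from group means correlated at 0.0531, -0.0448 and -0.0280 for equal numbers, so they were not used to pair mice. Nothing says that mice were processed as separate batches, and the study's methods mention cages only as housing. The p-values set group differences against the spread between these mice, with each gene's variance drawn toward the trend over all genes.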

Additional observations from a re-analysis of the deposited data

Results flagged for a closer look

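Among the 10123 genes under the limit of 30 reads, 3 had reads in each WT_ST mouse, above the 3 reads that a count of 0 allows, and none in any CT mouse. Gpr39, a zinc-sensing receptor, had at least 4 reads in each WT_ST mouse (6, 4 and 6) and none in the KO_ST mice. Esco2, an acetyltransferase of sister chromatid cohesion that dividing cells use, had at least 6 (6, 10 and 8), and 4, 0 and 4 in KO_ST. Cfhr2, a gene related to complement factor H, had at least 10 (17, 10 and 12) and none in KO_ST. These counts are not tested, and no fold is given at this depth.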

How the results depend on the processing

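The 353 genes that rose or fell became 541 with a pseudocount of 0.1, 162 with a Student test per gene, 535 with edgeR under TMM or RLE scaling, 700 with edgeR and no filter, 553 with DESeq2, and between 277 and 542 when 1 mouse was left out. The 5 genes at an adjusted p under 0.05 became 2 without the filter, 2 at a mean FPKM of 1 or more, 3 with all 9 libraries in the fit, 71 with DESeq2, between 2 and 17 when 1 mouse was left out, and 0 with the Student test (1023 genes at an unadjusted p under 0.05). The cause of these differences was not tested. Counts-based tests gave 32.9% to 34.4% of the genes as higher. A replicate block over equal numbers, which do not pair the mice, gave 398 genes, none at an adjusted p under 0.05 in limma (982 at an unadjusted p under 0.05), while 83 of 91 named genes kept their call. Over all alternatives, 1344 of 1634 values of named genes stayed on the same side of the limits, 289 lost the call, 1 gained it and none changed sign, and 28 genes passed everywhere. With 3 mice a group the median standard error was 0.0734 on the log2 scale, which limits how small a difference can be told from none.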

Other observations

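The reverse pattern, reads in every CT mouse and none in any WT_ST mouse, held for 13 genes under the limit of 30 reads. The CT libraries were deeper, at 48929425 to 61150128 reads on genes against 44318775 to 49246438 in WT_ST. The part of depth in this count was not tested. Cd300lf, an inhibitory receptor of myeloid cells, was the deepest, with 38, 32 and 97 reads in CT, none in WT_ST and 51, 37 and 56 in KO_ST. Bpifb4, a secreted lipid-binding protein, had 8, 10 and 21 reads in CT and 11, 7 and 7 in KO_ST. Lilr4b, another myeloid receptor, had 4, 7 and 20 in CT, and Gm14405, a further zinc finger gene, 7, 13 and 10. The remaining 9 had between 4 and 15 reads in each CT mouse. For Cd300lf and Bpifb4 reads returned in each KO_ST mouse, so the gap was seen in the WT_ST mice alone.

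Haemoglobin genes, near-identical copies that lie together, also took separate levels. Hbb-bs was at an FPKM of 32.1, 73.6 and 359 in CT and 76.03, 0.1004 and 228 in WT_ST, and Hbb-b1 at 0.1004, 0.149 and 0.247 and 0.198, 72 and 0.151, so that of these 2 genes WT_ST replicate 2 had the higher FPKM for Hbb-b1 and each other wild-type mouse for Hbb-bs. KO_ST had 70.99, 99.8 and 0 for Hbb-bs and 0.146, 0.168 and 67.7 for Hbb-b1.

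Clock was at 2.81, 2.78 and 8.85 in CT, 4.89, 9.59 and 8.87 in WT_ST and 6.81, 9.75 and 2.16 in KO_ST, and Mcm6 at 0.561, 0.354 and 3.14, 2.78, 2.81 and 3.08 and 3.51, 2.92 and 1.903. Cacnb4, a calcium channel subunit, was at 9.999, 25.6 and 7.32, 28.4, 29.7 and 22.9 and 7.98, 11.7 and 29.4. Levels of these genes differed several-fold between CT mice, and for Clock and Mcm6 some mice lay in between. They were chosen after their values were seen.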
